A study of Mus musculus with 12 samples.

Results

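The nuclear-encoded genes of oxidative phosphorylation were taken by symbol: every row of the count table that begins with Nduf, Uqcr, Cox4 to Cox8 or Atp5, and Sdha, Sdhb, Sdhc and Sdhd, without predicted or retrogene rows ending in -ps or Rik. The rule gave 97 of the 55291 symbols: 41 of complex I, 8 complex I assembly factors (symbols with Ndufaf), 4 of complex II, 8 of complex III, 19 of complex IV and 17 of complex V. Of the 97, 89 passed the filter on low counts. The other 8 were not tested: Cox8c and Ndufa4l2 had 0 counts in every library, and Cox4i2, Cox7b2, Cox8b, Ndufa11b, Ndufb4c and Ndufs6b had at most 10 counts in any library. The annotation lists 92 members as protein-coding and 4 (Cox6c2, Ndufa11b, Ndufb4c, Ndufs6b) as processed pseudogenes, whose reads may be shared with their parent genes. Ndufa4 is counted with complex I by its symbol, although its protein is now placed in complex IV.

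Oxidative phosphorylation is carried out by protein complexes in the inner mitochondrial membrane. Complexes I and II pass electrons from NADH and succinate to coenzyme Q, complex III passes them to cytochrome c, and complex IV passes them to oxygen; the proton gradient built on the way drives complex V, the ATP synthase. Most subunits come from nuclear genes, and a small core set is made from mitochondrial DNA, so that both genomes supply complexes I, III, IV and V, while complex II is wholly nuclear. In marrow, early myeloid cells and erythroid precursors are rich in mitochondria, whereas mature neutrophils hold few and rely largely on glycolysis.

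The RNA came from mouse marrow taken at about 8 weeks of age and cultured for about 24 hours in alpha-MEM, from which the non-adherent cells, labelled progenitors, were collected. Control mice, described only as control, and mice titled homozygous were either untreated or given short-chain fatty acids (SCFA) in the drinking water, with 3 libraries in each of the 4 groups. The homozygous genotype is STAT3Cstopfl/fl CD4Cre, written as R26STAT3Cstopfl/fl CD4Cre for homozygous untreated 1: a constitutively active STAT3 behind a stop cassette, freed by a Cre under the Cd4 promoter, which acts mainly in T cells. Counts per gene do not distinguish STAT3C from endogenous Stat3 transcripts and so give no check of the genotype labels. The series asks about both factors, and 5 comparisons follow from it. Genotypes were compared without SCFA and under SCFA, SCFA was compared with no treatment in control and in homozygous mice, and the interaction tests whether these differences depend on each other.

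Total counts ran from 16954355 to 20748995 per library. Every untreated library carries a label date of day 1 and every SCFA library of day 30 of the same month, so SCFA and date cannot be told apart. The labels do not say that libraries of a group are separate mice, and p-values then measure only the spread between these libraries, which may be technical. Against the label progenitors, markers of stem and progenitor cells summed to 260.5 to 277 CPM (counts scaled to library size) in control untreated libraries, markers of late neutrophils to 38074 to 56835, erythroid markers to 18943 to 20845 and T cell markers to 101 to 123. In homozygous SCFA libraries the late neutrophil sum was 62800.4 to 73436 and the erythroid sum 2971 to 3315. The B lineage sum there was 371 to 423, against 3287 to 3526 in control untreated libraries, and the T cell sum 49.3 to 54.2. In homozygous untreated and control SCFA libraries the late neutrophil sums were 59494 to 79388 and 60212 to 64803 and the erythroid sums 9767 to 12840.1 and 11904 to 13994. The stem and progenitor sum was 506 to 591 in homozygous untreated, 326 to 362 in control SCFA and 325 to 353 in homozygous SCFA libraries. Of the 7 tested genes of that list, only Cd34 and Ly6a were called higher in homozygous untreated than in control untreated libraries. The median log2 fold change of the list was 0.19, so the sum does not stand for the whole list. From control to homozygous untreated libraries the monocyte sum went from 4455 to 5004 to 6730.3 to 7055 and that of S and G2/M phase genes from 2149 to 2364 to 2827 to 2919.5. Of 7 primary granule genes of early neutrophils, 5 were called higher in homozygous mice under SCFA, with sums of 1809 to 2217 and 2632 to 3545. Some of these sums differed in each pair of groups compared below, and the part of cell makeup in the members' values was not tested. A sum is carried by its most abundant genes, and in some lists single markers moved in both directions. Of 15 erythroid genes, 3 were called higher and 6 lower in homozygous mice without SCFA, and 4 and 6 under SCFA. Of 12 late neutrophil genes, 4 rose and 5 fell with SCFA in control mice (median log2 fold change -0.11), although their sums were higher. In such bulk RNA, fewer cells of a type and less RNA per cell cannot be told apart.

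The members' fold changes went with the share of G and C in the transcript (GC), as given with the correlations below. The last 120 coding bases of a set of genes illustrate it (6 complex I and V genes, GRCm38, mm10, strand of the gene, stop codon left out, G and C in capitals). The set was chosen for this pattern after its values were seen and is no test of it. Members that went against the pattern, such as Atp5j and Atp5mpl, are given with the offsets below. The first 3 genes rose in homozygous untreated mice and in SCFA-treated control mice; the last 3 fell in SCFA-treated control mice.
Ndufs4: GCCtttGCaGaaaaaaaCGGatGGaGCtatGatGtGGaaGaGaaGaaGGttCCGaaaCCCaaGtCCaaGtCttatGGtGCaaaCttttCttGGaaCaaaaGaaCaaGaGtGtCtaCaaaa
Ndufc1: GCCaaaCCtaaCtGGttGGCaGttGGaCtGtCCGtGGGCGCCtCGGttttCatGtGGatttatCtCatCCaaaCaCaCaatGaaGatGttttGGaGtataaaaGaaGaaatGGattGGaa
Ndufb5: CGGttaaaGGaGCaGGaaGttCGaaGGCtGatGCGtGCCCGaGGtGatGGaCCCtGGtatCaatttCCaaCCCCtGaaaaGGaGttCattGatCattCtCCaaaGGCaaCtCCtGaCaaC
Ndufv1: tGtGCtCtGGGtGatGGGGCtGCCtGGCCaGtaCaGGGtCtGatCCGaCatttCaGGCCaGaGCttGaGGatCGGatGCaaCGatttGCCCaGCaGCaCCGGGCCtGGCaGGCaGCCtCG
Ndufs7: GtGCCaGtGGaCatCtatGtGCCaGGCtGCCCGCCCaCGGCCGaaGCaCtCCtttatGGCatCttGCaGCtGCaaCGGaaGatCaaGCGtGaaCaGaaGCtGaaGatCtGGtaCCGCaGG
Atp5d: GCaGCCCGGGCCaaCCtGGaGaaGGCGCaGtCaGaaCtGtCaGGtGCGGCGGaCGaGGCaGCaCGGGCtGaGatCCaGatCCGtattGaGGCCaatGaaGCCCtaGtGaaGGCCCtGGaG
G and C made up 49, 52 and 60 of the 120 bases in Ndufs4, Ndufc1 and Ndufb5, and 75, 69 and 76 in Ndufv1, Ndufs7 and Atp5d. Ndufs4 (chr13:114287795-114388258), an accessory subunit of the NADH-oxidizing part of complex I, has a whole-transcript GC of 43.1%. Ndufs7 (chr10:80249121-80256794), which carries an iron-sulfur cluster next to the coenzyme Q site of the same complex, has 59.6%.

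Levels of different members were compared only as CPM per kilobase of merged exons, averaged over the 12 libraries. Merged exons join all annotated transcripts of a gene and can be long, which lowers the value. They span 4237 bases for Atp5b, 4912 for Atp5g1 and 1908 for Atp5c1, while the median transcript of the members has 870. The order of members below therefore depends on the annotated lengths, and other lengths were not tried. Complex I subunits had a median of 48 CPM per kilobase (37 members), complex II 81.9 (4), complex III 66.4 (8), complex IV 62.7 (15), complex V 60.3 (16) and the complex I assembly factors 8.37 (8). These are medians of RNA levels, and single subunits, such as Atp5g2 and Cox6b2 below, lay under the highest assembly factors. In complex I the highest levels per kilobase were those of Ndufa1 (444) and Ndufb6 (235), small membrane-arm subunits. In complex II they were those of Sdhd (232), a membrane anchor, and Sdha (86.4), the flavoprotein that oxidizes succinate. Complex III was led by Uqcrb (420.2) and Uqcr10 (109), and complex IV by Cox6b1 (207) and Cox8a (186). Atp5c1 (239.9) and Atp5a1 (181), subunits of the soluble F1 part, led complex V, and Ndufaf1 (24.4) and Ndufaf8 (17.4) the assembly factors. Ubiquitous isoforms far outweighed tissue-restricted ones. Per kilobase, Cox6a1 stood at 164 and its muscle isoform Cox6a2 at 8.83. Cox7a2 stood at 136 and its muscle isoform Cox7a1 at 0.812, Cox6b1 at 207 and its testis isoform Cox6b2 at 2.66. Of the 3 genes for the same c-ring protein of ATP synthase, Atp5g3 had 165 CPM per kilobase, Atp5g1 9.4 and Atp5g2 3.48.

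The summed level of the members was lowest on average in control untreated libraries, at 10523, 8867 and 9235 CPM (replicates 1 to 3). It was 12984, 11345 and 10802 CPM in homozygous untreated, 9965, 10579 and 10635 in control SCFA and 10727, 11282 and 10398 in homozygous SCFA libraries. On this TMM scale the homozygous untreated sums all lay above the control untreated sums, while control SCFA and homozygous SCFA sums over all members overlapped. The SCFA groups did not overlap in complexes III and IV. Complex III had at most 1071 CPM in control SCFA and at least 1087 in homozygous SCFA libraries. Complex IV had at most 1379 and at least 1440 CPM in the same groups. Complex I summed to 3166, 2650.0 and 2718 CPM in control untreated and 3953, 3268 and 3197 in homozygous untreated libraries. Complex V, the largest sum, stood at 3901, 3117 and 3407 and 4723, 4379.8 and 4053 CPM in these groups, and at 3684, 4019 and 4005 in control SCFA and 3839.6, 3827 and 3671 in homozygous SCFA libraries. Complex II ran from 739 to 918 CPM over the 12 libraries, with homozygous SCFA libraries at 875, 865 and 871. On plain totals the untreated groups overlapped over all members, with 10748 CPM in control untreated 1 and 10725 in homozygous untreated 3. Complex I overlapped too, with 3234 CPM in control untreated 1 against 3099 and 3174 in homozygous untreated 2 and 3. Complex V did not, with at most 3984 CPM in control untreated and at least 4024 in homozygous untreated libraries. The assembly factors were only just apart, at 167.3 and 167.6 CPM. A sum is carried by its most abundant genes, and no test was made on sums.

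**Figure D1:**
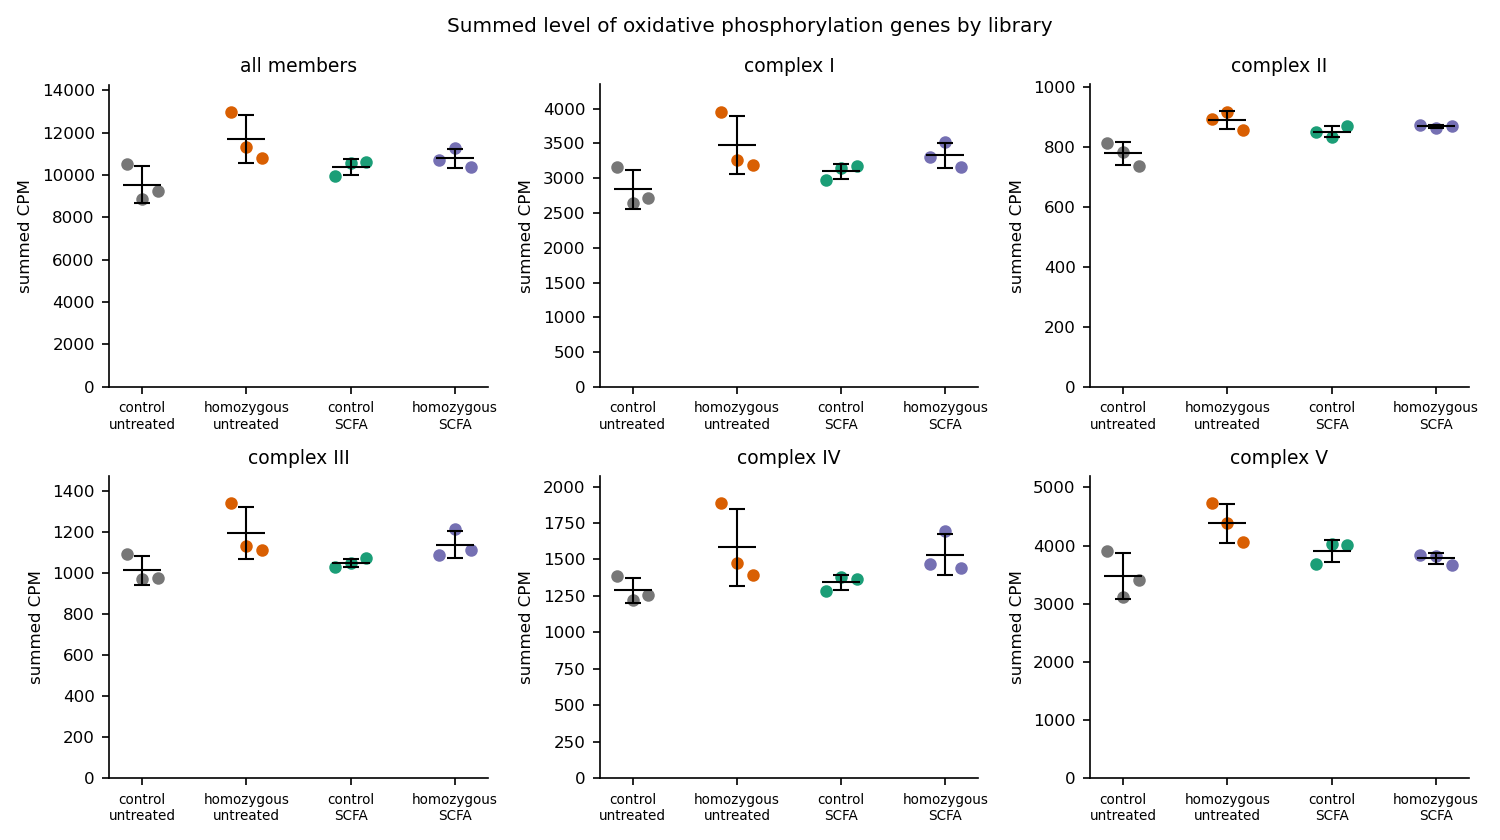
Summed CPM (y axis, TMM-scaled, from 0) of all members and of complexes I to V in each of the 12 libraries, by group (x axis); points are libraries, bars the mean ± SD of 3. Homozygous untreated libraries sum to 10802 CPM or more over all members and control untreated libraries to 10523 or less.

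Without SCFA, more members were higher than lower in homozygous than in control mice: 24 of the 89 rose and 2 fell (edgeR quasi-likelihood test, p adjusted over all genes by Benjamini-Hochberg, called under 0.05). These were 29.2% of members against 14.8% of all genes tested, of which 6.69% rose and 8.13% fell. The median log2 fold change was 0.17 over members and -0.04 over all genes tested. Rises were spread over the complexes, with 11 of 37 complex I subunits, 2 of 8 assembly factors, 1 of 4 members of complex II (Sdhd), 1 of 8 of complex III (Uqcrb), 4 of 15 of complex IV and 5 of 17 of complex V. Ndufs4 read 106, 71.8 and 84.7 CPM in control untreated and 159, 149 and 119 in homozygous untreated libraries (log2 fold change 0.70 ± 0.15 SE, adjusted p = 0.00926). Its groups did not overlap, although homozygous untreated 3 lay near control untreated 1. Atp5mpl, a small membrane subunit of ATP synthase, read 123, 69.6 and 88.2 and 207, 187 and 133 CPM in the same groups (0.91 ± 0.21, adjusted p = 0.0117). Cox7a2, the ubiquitous isoform of a complex IV subunit, read 118, 87.3 and 102 and 191, 149.9 and 130.4 CPM (0.62 ± 0.15, adjusted p = 0.0192). In both genes every homozygous library was above every control library, and replicate 1 was the highest of its group on either side. Among the complex I accessory subunits, Ndufb5 rose by 0.64, Ndufc1 by 0.87 and Ndufa5 by 0.68 on the log2 scale (adjusted p = 0.0137, 0.0195 and 0.0237). The 2 that fell were Cox6a2, described with the isoforms, and Ndufs8. Ndufs8, an iron-sulfur subunit of complex I, read 103, 137 and 110.0 CPM in control and 86.5, 57.8 and 83.8 in homozygous untreated libraries (-0.62 ± 0.18, adjusted p = 0.0363). This count rested on single libraries: it was 1 when control untreated 2 or 3 or homozygous untreated 2 was left out, 16 when homozygous untreated 3 was left out, and 0 by edgeR when homozygous untreated 1 was left out, where 35 members had an unadjusted p under 0.05. Fitted on only the 6 libraries compared, 2 were called.

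Under SCFA, 20 of the 89 members were higher and 2 lower in homozygous than in control mice, 24.7% against 17.4% of all genes tested (8.89% rose, 8.47% fell); the medians were 0.15 and -0.02. The members that rose were 6 subunits of complex I, 1 assembly factor, 1 member of complex II (Sdhc), 3 of complex III, 4 of complex IV and 5 of complex V. Uqcr11, a small subunit of complex III, read 52, 44.4 and 40.1 CPM in control SCFA and 73.3, 109 and 80.1 in homozygous SCFA libraries (log2 fold change 0.94 ± 0.19 SE, adjusted p = 0.00377). Cox4i1, the ubiquitous isoform of the largest nuclear subunit of complex IV, read 150.3, 135 and 119 and 185, 260.2 and 225 CPM (0.73 ± 0.15, adjusted p = 0.00461). Ndufa8, an accessory subunit of complex I, read 46.7, 41.7 and 37.4 and 58.5, 88.4 and 70.5 CPM (0.79 ± 0.16, adjusted p = 0.00472). In these 3 genes homozygous SCFA 2 was the highest library and every control SCFA library lay below every homozygous one. Uqcrq (chr11:53427922-53430831), which sits beside cytochrome b in complex III, read 63.5, 68.5 and 60 CPM in control SCFA and 82.5, 118 and 99.8 in homozygous SCFA libraries (0.65 ± 0.14, adjusted p = 0.00697), and 82.6, 97.3 and 82 and 90.4, 75.3 and 82.2 in the untreated control and homozygous libraries, which overlap. The 2 members that fell were Cox6a2 and Uqcrc2, a core subunit of complex III. The count was 13 without control SCFA 2, 9 without control SCFA 3 and 8 without homozygous SCFA 2.

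In control mice, members moved in both directions with SCFA: 11 of 89 rose and 19 fell, 33.7% against 21.9% of all genes tested (8.89% rose, 13% fell). The median log2 fold change was 0.00 over members and 0.04 over all genes. Complex I itself divided, with 7 subunits up and 8 down. Uqcrc1, the partner of Uqcrc2 in the core of complex III, read 245, 358 and 303 CPM in control untreated and 189.7, 183 and 149.9 in control SCFA libraries (log2 fold change -0.80 ± 0.16 SE, adjusted p = 0.00702). Ndufs7 read 68.1, 89.8 and 68.6 and 44.1, 39.6 and 35.7 CPM (-0.92 ± 0.19, adjusted p = 0.00785), and Ndufv1, the subunit that binds NADH, 57.1, 86.1 and 64.4 and 41.1, 36.7 and 34.3 (-0.89 ± 0.19, adjusted p = 0.00903). No library of one group reached the other in these 3 genes. Atp5d, the delta subunit of the rotor stalk, fell as well (-0.86 ± 0.19, adjusted p = 0.00872). Ndufb4, a membrane-arm subunit of complex I, went the other way, with 23.4, 13.7 and 13.2 CPM in control untreated and 33.4, 32.5 and 35.1 in control SCFA libraries (1.00 ± 0.23, adjusted p = 0.0105). The other rises, all between 0.45 and 0.88 on the log2 scale, were those of Ndufa1, Ndufs4, Ndufb5, Ndufa5, Ndufc1 and Ndufv2 in complex I, Uqcrb in complex III, and Atp5j, Atp5mpl and Atp5md in complex V. Uqcrb, a subunit near the coenzyme Q site of complex III, read 370.4, 127 and 206 CPM in control untreated libraries, the widest spread among these, and 395, 415 and 486 in control SCFA. The count of 30 calls was 9 without control untreated 2 or control SCFA 2, 15 without control untreated 3, and 1 without control SCFA 3. Fitted on only the 6 libraries compared, 18 were called.

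In homozygous mice the SCFA comparison gave 4 calls among the members, all lower with SCFA. This is 4.49% against 9.58% of all genes tested, of which 3.96% rose and 5.61% fell; the medians were -0.05 and -0.00. By edgeR 0 members rose; at an unadjusted p under 0.05, 10 were higher and 12 lower, DESeq2 called 2 higher and 6 lower, and limma-voom called 6 and 12. Uqcrc2 (chr7:120635176-120659524) read 113, 125 and 114 CPM in homozygous untreated and 75.3, 75.4 and 76.6 in homozygous SCFA libraries (log2 fold change -0.63 ± 0.11 SE, adjusted p = 0.00245). The homozygous SCFA libraries lay close together and below every library of the other groups, with control untreated at 94, 89.5 and 107 and control SCFA at 102, 107 and 114 CPM. Ndufaf1, a factor that assembles the membrane arm of complex I, read 44.2, 45.9 and 43.9 CPM without and 35.5, 27.4 and 23.8 with SCFA (-0.63 ± 0.18, adjusted p = 0.0402). Ndufa9, a subunit at the joint of the complex I arms, read 131, 116 and 112 and 86.3, 96.9 and 85.6 CPM (-0.42 ± 0.12, adjusted p = 0.0367). Neither pair of groups overlapped, and both calls were lost without any 1 of 9 libraries, up to an adjusted p of 0.202 for Ndufaf1 and 0.148 for Ndufa9. The count was 10 without control untreated 2. It was 2 when control untreated 3, homozygous untreated 2 or 3, control SCFA 2 or 3, or homozygous SCFA 3 was left out; with the replicate number as a block it was 2.

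The interaction asks whether the genotype difference was the same with and without SCFA. It differed for 37 of the 89 members, 18 in favour of homozygous SCFA mice and 19 against, 41.6% against 25.1% of all genes tested (13.6% rose, 11.6% fell). Ndufs7 showed the first kind, with 68.1, 89.8 and 68.6 CPM in control untreated, 56.7, 42.2 and 62 in homozygous untreated, 44.1, 39.6 and 35.7 in control SCFA and 50.4, 82.2 and 71 in homozygous SCFA libraries (interaction 1.26 ± 0.27, adjusted p = 0.00612). Its genotype difference was -0.49 ± 0.19, adjusted p = 0.0954 without SCFA, which missed the threshold, and 0.77 ± 0.19, adjusted p = 0.0143 with SCFA. Ndufb7, a membrane-arm subunit, differed by 1.26 ± 0.25, adjusted p = 0.00377, Atp5d by 1.29 ± 0.27, adjusted p = 0.00466 and Cox4i1 by 1.02 ± 0.21, adjusted p = 0.00496. Ndufs4 showed the second kind, with 119, 136 and 136 CPM in control SCFA and 113, 109 and 101 in homozygous SCFA libraries beside the untreated values above (interaction -0.98 ± 0.21, adjusted p = 0.00635). Uqcrc2 differed by -0.79 ± 0.16, adjusted p = 0.00427. The calls came from 9 up and 7 down in complex I, 1 and 1 among the assembly factors, Sdhc alone in complex II, 3 and 2 in complex III, 2 and 4 in complex IV, and 2 and 5 in complex V. The count was 23 without control untreated 3, 22 without homozygous untreated 2, 19 without control SCFA 3 or homozygous SCFA 2, and 21 without homozygous SCFA 3.

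**Figure D2:**
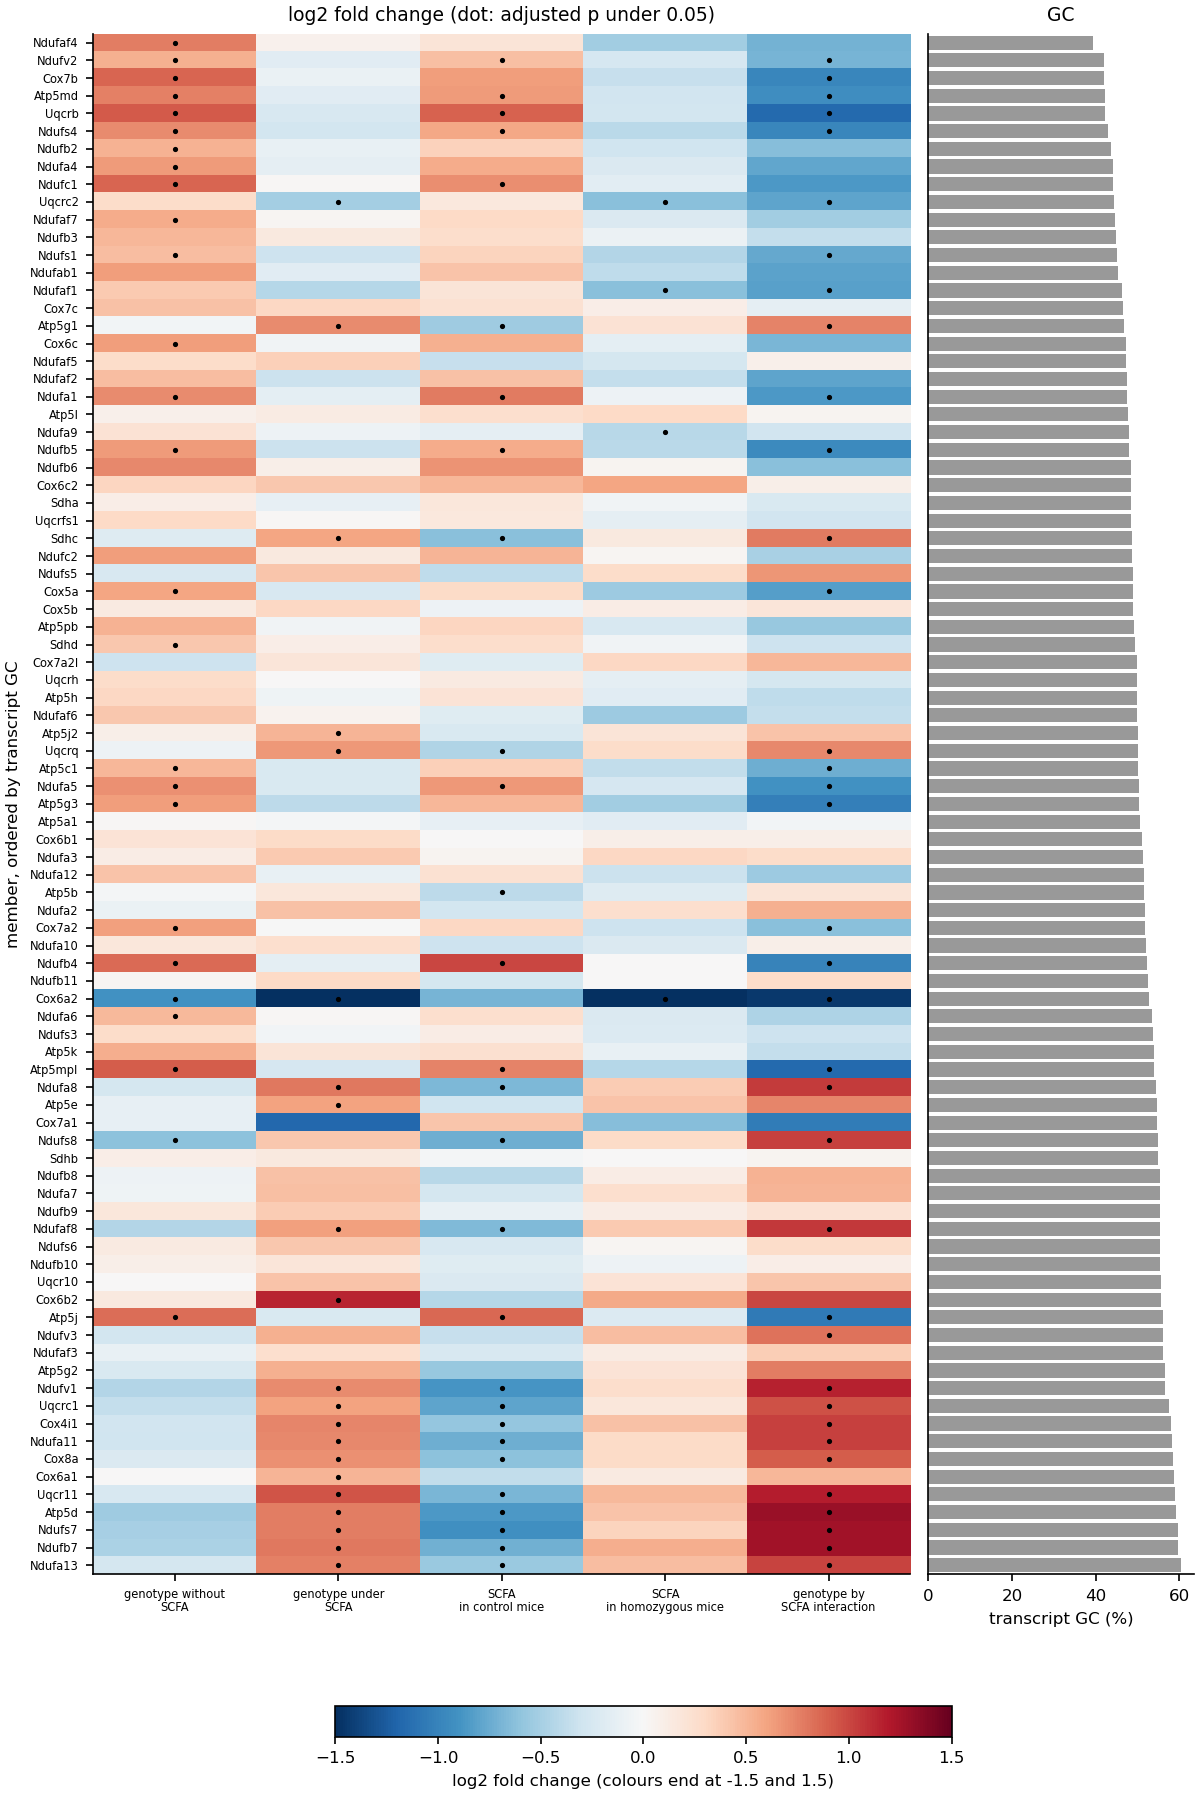
Log2 fold changes (colour, ending at -1.5 and 1.5) of the tested members with a transcript GC, 1 of the 88 not shown, ordered from low GC (top) to high GC (bottom), in the 5 comparisons; dots mark an adjusted p under 0.05 and the bars at the right give transcript GC in percent. Rises in untreated homozygous mice sit mostly in the upper rows and rises in homozygous SCFA mice mostly in the lower rows.

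Members of the same complex moved in different directions, and their fold changes correlated with GC. Transcript GC ran from 39.5% (Ndufaf4) to 60.4% (Ndufa13), with a median of 50.5% against 49.1% over all genes tested. The members that rose in untreated homozygous mice had a median GC of 47.3%, and those that rose under SCFA 57.5%; in SCFA-treated control mice the members that rose had 47.5% and those that fell 57.1%. Across the 88 members the Pearson correlation of GC with the log2 fold change was -0.67 for genotype without SCFA, 0.46 for genotype under SCFA, -0.65 for SCFA in control mice, 0.47 for SCFA in homozygous mice and 0.67 for the interaction. The same correlation over all 15511 genes with a GC value had the same sign, at -0.34, 0.23, -0.49, 0.15 and 0.42. With the log2 length of the transcript the members' correlations were 0.06, -0.07, -0.05, -0.21 and -0.08; other properties were not compared. These describe genes that share the same libraries and are not replicates. In SCFA-treated control mice, 11 of the 23 members over 55% GC fell, beside 40.8% of all genes in that range. In homozygous untreated mice, the 12 members under 45% GC had a median of 0.67 and the 23 over 55% one of -0.23, beside 0.35 and -0.52 for all genes in these ranges, so members sat higher than other genes of like GC in both. Within single libraries, the slope of log2 level on GC was 0.0201 to 0.645 per 10 percentage points in control untreated, -0.307 to -0.00417 in homozygous untreated, -0.42 to -0.209 in control SCFA and -0.0872 to 0.215 in homozygous SCFA libraries. Cell makeup and library preparation were not separated as sources of this slope: their part in it was not tested.

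**Figure D3:**
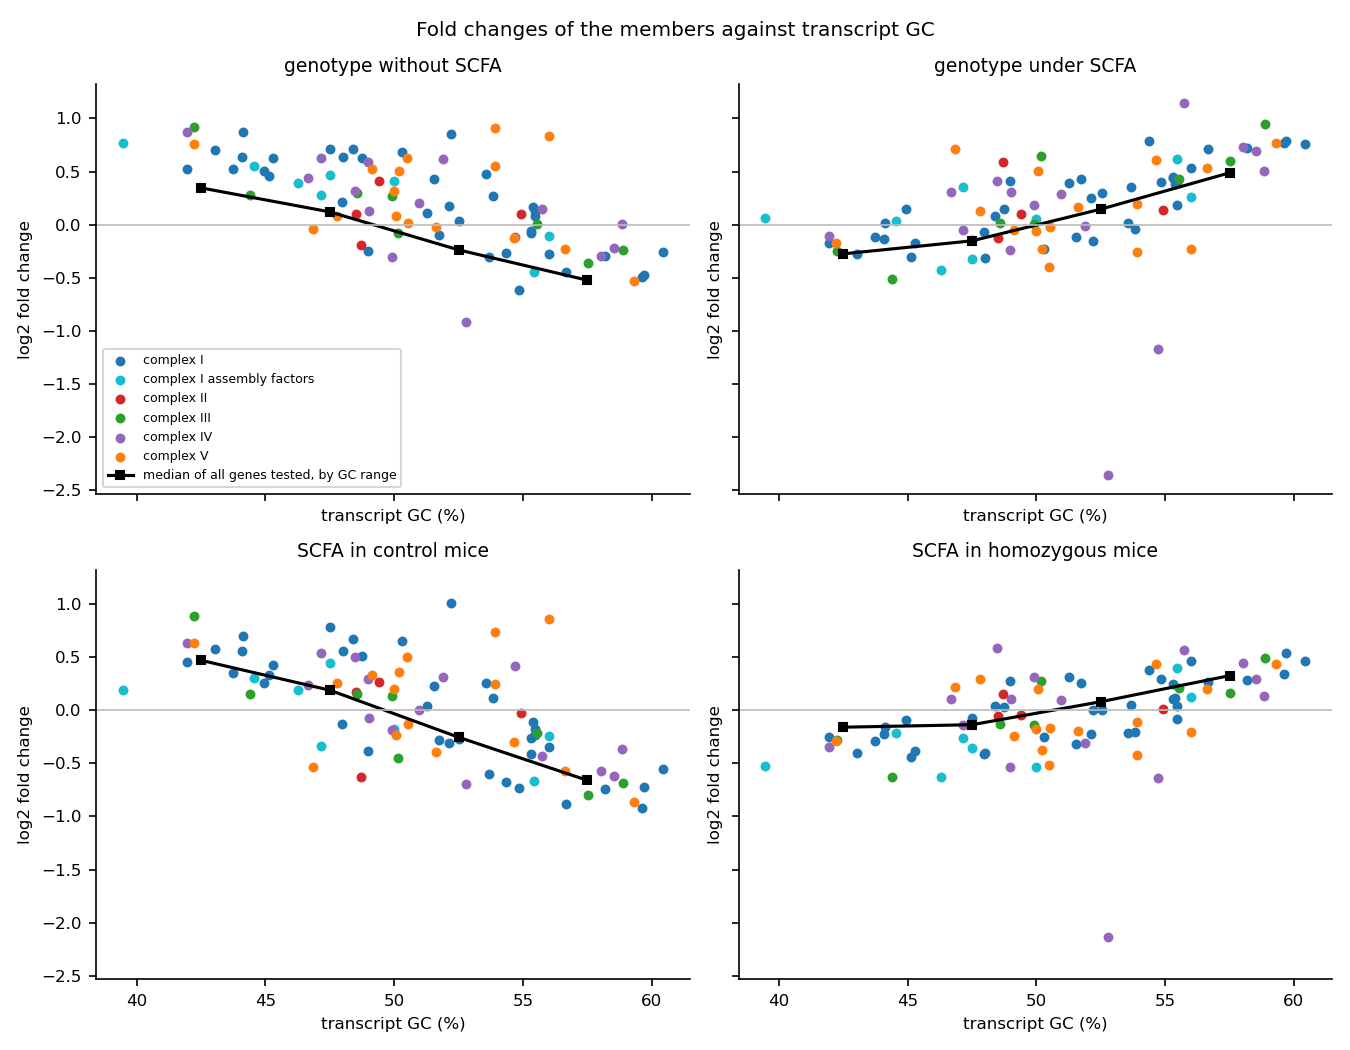
Log2 fold change (y axis) of each tested member against its transcript GC in percent (x axis) in the 4 comparisons of 2 groups, coloured by complex; black squares join the medians of all genes tested in 4 GC ranges. Members and all genes fall with GC in the left panels and rise with it in the right panels.

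The fit was repeated with an offset per gene and library for the trend of counts on GC, an alternative chosen after the relation had been seen. For genotype without SCFA, 23 of the 88 members with a transcript GC rose, 26.1% called against 9.6% of all genes (4.69% rose, 4.91% fell). The median was 0.26, and 15 of the 26 calls without offsets were shared. That count of 23 was 2 when control untreated 2 or 3 was left out, 4 and 14 when homozygous untreated 2 and 3 were, and 0 by edgeR when homozygous untreated 1 was, where 32 had an unadjusted p under 0.05. For genotype under SCFA, 9 rose and 1 fell, 11.4% called against 15.8% of all genes (8.11% rose, 7.72% fell). The 7 shared calls were Atp5g1, Atp5j2, Cox6a2, Ndufa8, Sdhc, Uqcr11 and Uqcrq. For SCFA in control mice the 30 calls became 6, against 5.02% of all genes, and 5 were shared: Atp5g1, Atp5j, Atp5mpl, Ndufb4 and Sdhc. Leaving out control untreated 2, control SCFA 2 or control SCFA 3 brought the 6 to 0 by edgeR, with 22, 25 and 19 at an unadjusted p under 0.05. For SCFA in homozygous mice 4 were called (12.3% of all genes), and Cox6a2, Ndufaf1 and Uqcrc2 were shared. For the interaction the 37 calls became 15, against 9.55% of all genes, and 11 were shared; single libraries left out gave 5 to 26. Ndufs7 went from an interaction of 1.26 to 0.22 ± 0.16, adjusted p = 0.441. Uqcrq held at 0.74 ± 0.12, adjusted p = 0.000688 for genotype under SCFA and 0.75 ± 0.17, adjusted p = 0.0137 for the interaction. Atp5mpl and Atp5j, with 53.9% and 56.0% GC in the annotated transcript used, moved in the direction of members of low GC. With the offsets their interactions went from -1.16 to -1.61 ± 0.35, adjusted p = 0.0117, and from -1.07 to -1.76 ± 0.42, adjusted p = 0.0199. Members' transcripts are also short, with a median of 870 bases against 2703 over all genes. Offsets for GC and length together gave 20 calls of 88 for genotype without SCFA, 24 for genotype under SCFA, 9 and 10 for SCFA in control and homozygous mice, and 23 for the interaction. The shares of all genes in that fit were 9.37%, 17.1%, 5.87%, 13.3% and 11%.

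**Figure D4:**
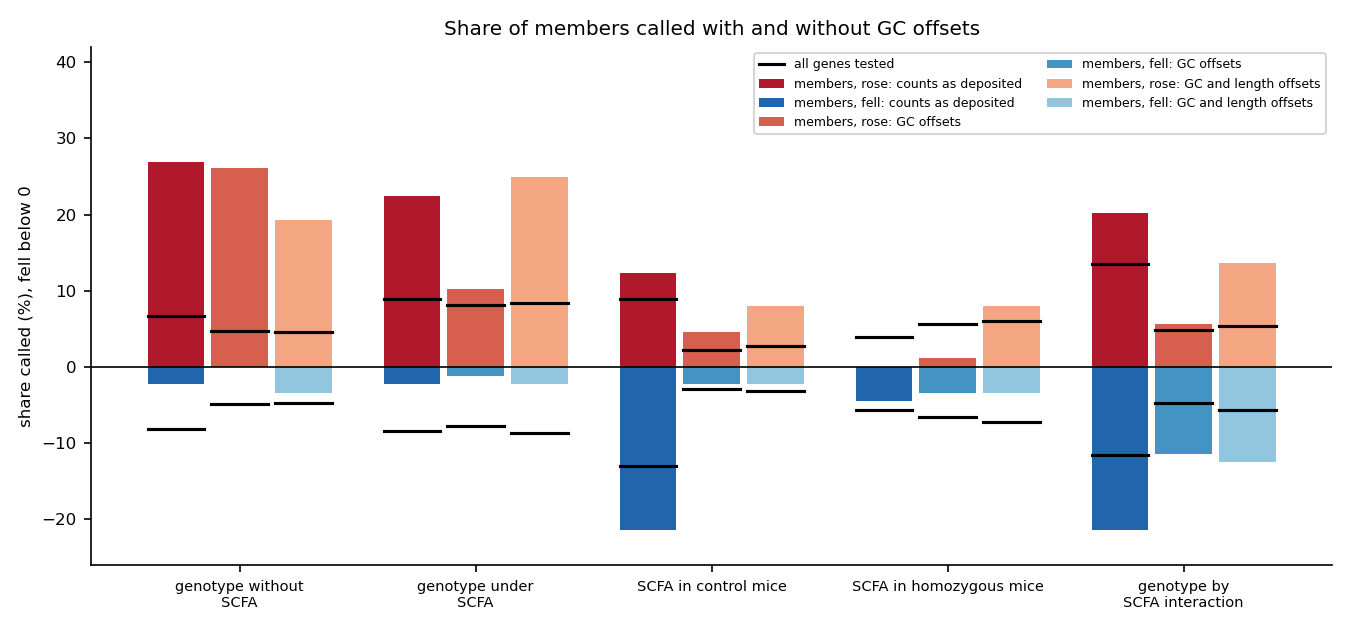
Share of tested members called higher (above 0) or lower (below 0) in percent (y axis) in each comparison (x axis), from the counts as deposited, with GC offsets and with GC and length offsets; black lines give the same share over all genes tested. For SCFA in control mice the called share of members goes from 33.7% without offsets to 6 of 88 members with GC offsets.

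Of the isoform genes, Cox6a2 (chr7:128205435-128206387), the heart and skeletal muscle form of a complex IV subunit, stood apart. It read 9.7, 10.3 and 11.7 CPM in control untreated, 5.7, 4.58 and 6.57 in homozygous untreated, 6.99, 6.23 and 6.41 in control SCFA and 0.859, 1.53 and 1.43 in homozygous SCFA libraries. The 3 homozygous SCFA libraries lay below every other library, and control untreated libraries above every other. It was lower in homozygous than in control mice under SCFA (log2 fold change -2.36 ± 0.28 SE, adjusted p = 4.52e-05) and with SCFA in homozygous mice (-2.14 ± 0.28, adjusted p = 0.000149), and the interaction differed (-1.44 ± 0.37, adjusted p = 0.0124). With GC offsets these stood at -2.49 ± 0.25, adjusted p = 8.2e-06, -2.20 ± 0.25, adjusted p = 3.4e-05 and -1.76 ± 0.34, adjusted p = 0.00509. Without SCFA the fall was smaller (-0.91 ± 0.25, adjusted p = 0.0276) and was lost without control untreated 2 or 3 or homozygous untreated 1 or 2, up to an adjusted p of 0.119, and with GC offsets (-0.73 ± 0.23, adjusted p = 0.0591). The call without SCFA held with GC and length offsets. SCFA in control mice gave -0.69 ± 0.25, adjusted p = 0.0584. Of the plasmacytoid dendritic cell markers, Siglech had 80.9 to 129 CPM in control untreated, 70.9 to 89.4 in homozygous untreated, 111 to 138 in control SCFA and 16.7 to 24.4 in homozygous SCFA libraries, and Ccr9 had 56.9 to 60.5, 38.6 to 57.7, 69 to 96.2 and 8.55 to 12.2. The whole list of 10 dendritic and plasmacytoid dendritic markers, all with counts in every group, summed to 1925 to 2343, 1442 to 1711, 1735 to 1956 and 2541 to 3376 CPM. Its genes moved in both directions. For genotype under SCFA 3 rose and 4 fell, the calls being Ccr9, Cd74, H2-Aa, H2-Ab1, Itgax, Siglech and Tcf4. With SCFA in homozygous mice 3 rose and 4 fell, the calls being Bst2, Ccr9, Cd74, Flt3, H2-Aa, H2-Ab1 and Siglech. Siglech and Ccr9 had the smallest p of the list in both comparisons and do not stand for all of it. Bst2 was not called for genotype under SCFA, and Tcf4 was not called with SCFA in homozygous mice. The 15 B lineage markers summed to 3287 to 3526, 1172 to 1241, 3134 to 3243 and 371 to 423 CPM, with Rag1 and Rag2 at 0 in all homozygous SCFA libraries. The part of these cell types in the Cox6a2 values was not tested.

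The ubiquitous partner Cox6a1 read 113, 126 and 117 CPM in control untreated, 141, 105 and 111 in homozygous untreated, 100.1, 92.7 and 83 in control SCFA and 112, 154 and 126 in homozygous SCFA libraries, higher in homozygous than in control mice under SCFA (0.51 ± 0.15, adjusted p = 0.0287), the opposite direction to Cox6a2. With GC offsets that difference was 0.00 ± 0.12, adjusted p = 0.993, and with GC and length offsets 0.27 ± 0.09, adjusted p = 0.0578; on the deposited counts it was lost without any 1 of 4 libraries, up to 0.134. On the deposited counts Cox6b1 passed the test in none of the 5 comparisons, where its adjusted p ran from 0.159 to 0.996, with control libraries at 133, 138 and 130.2 CPM untreated and 131, 141 and 130.1 with SCFA. With GC and length offsets it was called for genotype under SCFA (0.39 ± 0.09, adjusted p = 0.0102). Cox6b2, at 2.38, 1.67 and 1.78 CPM in control SCFA and 3.22, 5.98 and 3.71 in homozygous SCFA libraries, was near the threshold (1.14 ± 0.38, adjusted p = 0.0495) and was lost without any 1 of 7 libraries, up to 0.211. Cox7a1 had under 1 CPM in every library and no call. Cox7a2l, which helps respiratory supercomplexes form, ranged from 31.8 to 48.4 CPM and had no call on the deposited counts. With GC offsets it was called for SCFA in homozygous mice (0.37 ± 0.11, adjusted p = 0.0465) and the interaction (0.55 ± 0.16, adjusted p = 0.0471), and with GC and length offsets also for genotype without SCFA (-0.40 ± 0.12, adjusted p = 0.0449). Cox8a, the ubiquitous form, read 88, 83.6 and 81.1 CPM in control SCFA and 111, 162 and 135 in homozygous SCFA libraries (0.69 ± 0.16, adjusted p = 0.0103); the call was lost with GC offsets (0.19 ± 0.11, adjusted p = 0.319) and held with GC and length offsets (0.48 ± 0.09, adjusted p = 0.0028). Ndufa4 read 293, 148 and 188 CPM in control untreated, 376, 320.3 and 284 in homozygous untreated, 287, 314 and 321 in control SCFA and 308, 275 and 258 in homozygous SCFA libraries, and its rise in untreated homozygous mice (0.64 ± 0.20, adjusted p = 0.0421) came with overlapping groups and was lost without any 1 of 10 libraries, up to 0.167.

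The c-ring genes of ATP synthase, which encode the same mature protein, moved apart. Atp5g1 read 45.5, 51.3 and 49.1 CPM in control untreated, 56.5, 41.1 and 44.5 in homozygous untreated, 38.6, 32.5 and 29.8 in control SCFA and 44.7, 66.9 and 53.5 in homozygous SCFA libraries. It was lowest in control SCFA libraries, which did not overlap with any other group, and both genotype under SCFA (0.71 ± 0.17, adjusted p = 0.0115) and SCFA in control mice (-0.53 ± 0.17, adjusted p = 0.0408) passed the test. With GC offsets these were 0.90 ± 0.18, adjusted p = 0.00318 and -0.76 ± 0.18, adjusted p = 0.0277. Atp5g3 read 383, 193 and 281 CPM in control untreated, 466, 474 and 383 in homozygous untreated, 373, 428 and 413 in control SCFA and 339.7, 306 and 278 in homozygous SCFA libraries, lowest on average in control untreated and highest in homozygous untreated libraries (0.63 ± 0.19, adjusted p = 0.0406). For the interaction Atp5g1 gave 0.75 ± 0.24, adjusted p = 0.0363 and Atp5g3 -1.02 ± 0.27, adjusted p = 0.0144, in opposite directions, and both held with GC offsets (1.12 ± 0.25, adjusted p = 0.0145, and -1.01 ± 0.29, adjusted p = 0.0407). Atp5g2, at 3.63 to 8.59 CPM, had no call. Without control SCFA 3 or homozygous SCFA 2 the Atp5g1 difference under SCFA missed the threshold (up to 0.0614). The Atp5g1 call for SCFA in control mice was lost without any 1 of 5 libraries (up to 0.173) and its interaction without any 1 of 8 (up to 0.117). The Atp5g3 call without SCFA was lost without any 1 of 10 (up to 0.145), and its interaction without homozygous SCFA 3. Atp5a1, a subunit of the F1 part, ranged from 525 to 608 CPM over the 12 libraries with no call. Atp5b, also of F1, read 687, 816 and 726 CPM in control untreated and 577, 612 and 509 in control SCFA libraries (-0.39 ± 0.11, adjusted p = 0.0226). The Atp5b call was lost with GC offsets (-0.24 ± 0.07, adjusted p = 0.0606).

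Complex II, which also serves the citrate cycle, had calls in both of its membrane anchors. Sdhc (chr1:171127165-171150603), a membrane anchor that helps to bind heme, read 39, 42.2 and 32.3 CPM in control untreated, 29.1, 34.1 and 36.4 in homozygous untreated, 26.4, 24.1 and 22.8 in control SCFA and 32.2, 40.7 and 37.5 in homozygous SCFA libraries. Control SCFA libraries lay below all others, with -0.63 ± 0.15, adjusted p = 0.0136 for SCFA in control mice, 0.59 ± 0.15, adjusted p = 0.0175 for genotype under SCFA and 0.78 ± 0.22, adjusted p = 0.0192 for the interaction. With GC offsets these were -0.71 ± 0.15, adjusted p = 0.0154, 0.74 ± 0.15, adjusted p = 0.00341 and 0.96 ± 0.21, adjusted p = 0.0119; without offsets all 3 missed the threshold when control SCFA 3 was left out. Genotype under SCFA also did without control SCFA 2 or homozygous SCFA 2 or 3 (up to 0.0714), and the interaction without homozygous untreated 1 or homozygous SCFA 2. Its partner anchor Sdhd read 267, 224 and 219.8 CPM in control untreated and 340.5, 310.1 and 294 in homozygous untreated libraries (0.41 ± 0.12, adjusted p = 0.0317), and 279, 272 and 302 and 330.5, 289 and 293 with SCFA, where the groups overlap. The Sdhd call was lost without any 1 of 5 libraries, up to 0.131. The catalytic subunits had no call on the deposited counts: Sdha ranged over 326 to 395 CPM and Sdhb, the iron-sulfur subunit, over 151 to 200.2. With GC offsets Sdhb was called for genotype without SCFA (0.41 ± 0.10, adjusted p = 0.0219), SCFA in control mice (0.41 ± 0.10, adjusted p = 0.0359) and the interaction (-0.58 ± 0.15, adjusted p = 0.0246). With GC and length offsets the latter pair was called (0.32 ± 0.08, adjusted p = 0.0394, and -0.41 ± 0.12, adjusted p = 0.0386) and genotype without SCFA was not (0.27 ± 0.08, adjusted p = 0.0596).

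**Figure D5:**
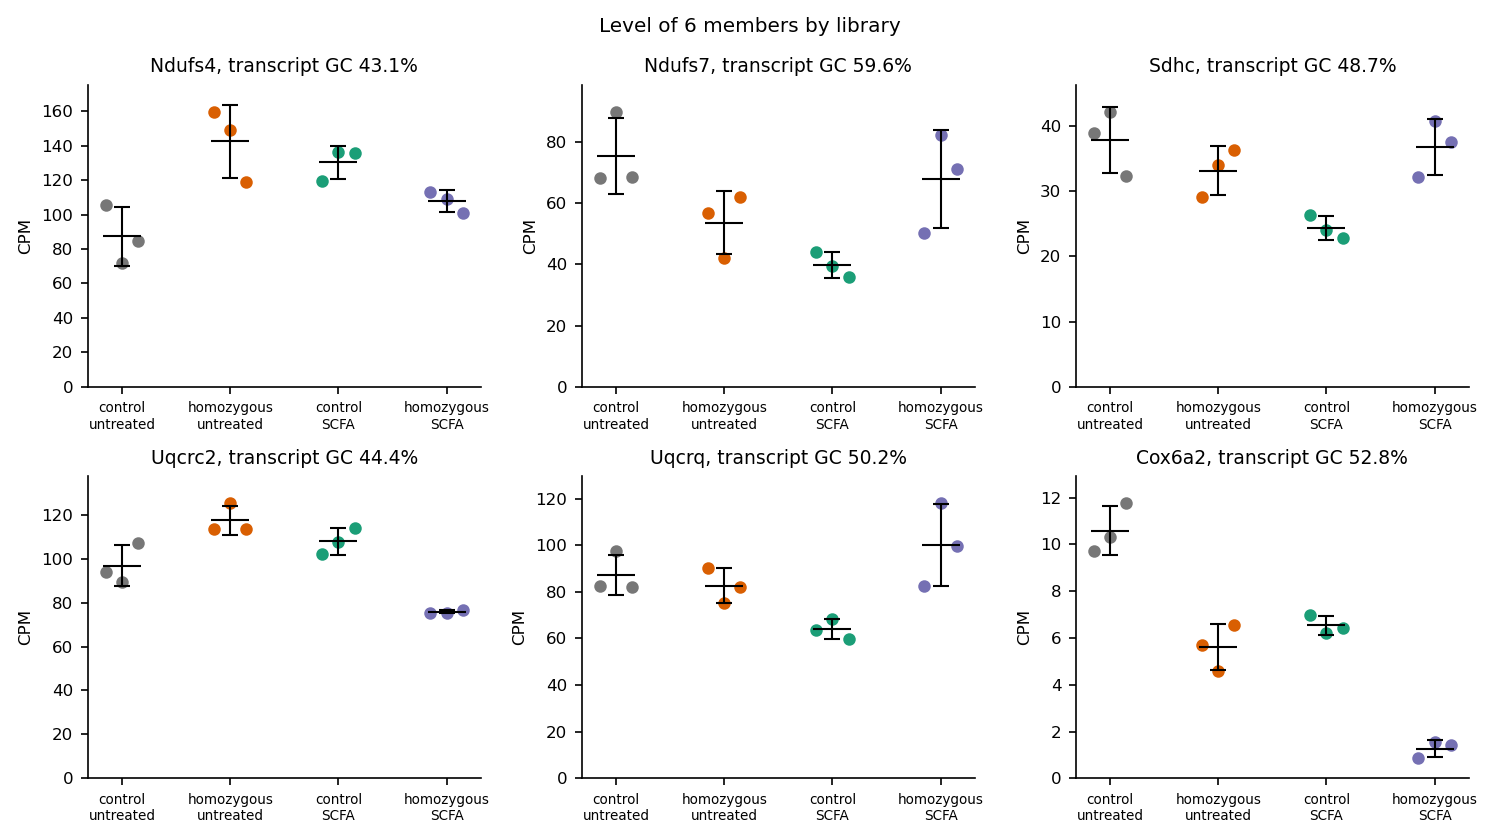
CPM (y axis, TMM-scaled, from 0) of 6 members in each library by group (x axis), with points for libraries and bars for the mean ± SD of 3; titles give transcript GC. Ndufs4 is lowest and Ndufs7 highest on average in control untreated libraries, Sdhc and Uqcrq are lowest in control SCFA libraries, and Uqcrc2 and Cox6a2 are lowest in homozygous SCFA libraries.

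The other genes of the pathway were counted from lists, and no list was tested as a set. Of all genes tested, 6.69% rose and 8.13% fell for genotype without SCFA, and 8.89% and 8.47% for genotype under SCFA. For SCFA in control mice 8.89% rose and 13% fell, and for SCFA in homozygous mice 3.96% and 5.61%. For the interaction the shares were 13.6% and 11.6%. Of the 13 mitochondrially encoded subunits, 12 were tested, and they summed to 6179 to 13046 CPM in control untreated, 10871 to 13488 in homozygous untreated, 13393 to 17326 in control SCFA and 10150.3 to 11599.5 in homozygous SCFA libraries. With SCFA in control mice 7 of the 12 rose, mt-Cytb of complex III by 0.80 ± 0.17, adjusted p = 0.00884 and mt-Co3 of complex IV by 1.32 ± 0.37, adjusted p = 0.0222. For the interaction 7 were lower, mt-Cytb with -1.09 ± 0.25, adjusted p = 0.00731. With GC offsets, the first count was 0 by edgeR (5 at an unadjusted p under 0.05), with a median of 0.24 in place of 0.79, and the second 4; without offsets 10 had an unadjusted p under 0.05, DESeq2 called 9 and limma-voom 10. For genotype under SCFA edgeR called only mt-Cytb lower, while the median of the 12 was -0.55. There 6 were lower at an unadjusted p under 0.05, DESeq2 called 3 lower and limma-voom 7. With GC offsets mt-Cytb and mt-Nd4 were called lower. For genotype without SCFA edgeR called 0, DESeq2 1 and limma-voom 10, with 4 at an unadjusted p under 0.05. For SCFA in homozygous mice all 3 tools and the unadjusted p gave 0. With GC offsets 4 were lower in that comparison at an unadjusted p under 0.05, and edgeR called 0.

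Of 6 tested genes listed as subunits and electron carriers outside the symbol rule, 3 rose in untreated homozygous mice. Among them were cytochrome c, Cycs (0.78 ± 0.17, adjusted p = 0.00888), and Dmac1 (0.59 ± 0.15, adjusted p = 0.0196). Dmac1 is in this list although it is named as an assembly component and is neither a subunit nor a carrier. Under SCFA Etfb, of the electron transfer flavoprotein, was higher in homozygous mice (1.12 ± 0.22, adjusted p = 0.00321) and its partner Etfa lower (-0.47 ± 0.12, adjusted p = 0.0147). In SCFA-treated control mice Cyc1 of complex III (-0.94 ± 0.20, adjusted p = 0.00788) and Etfb fell. With GC offsets 2 of the 3 rises, Cycs and Dmac1, and Etfb under SCFA held, and both falls with SCFA in control mice were lost.

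Of 14 citrate cycle enzymes, 6 fell with SCFA in control mice, led by Idh2 (-0.73 ± 0.16, adjusted p = 0.00893) and Idh3g (-0.51 ± 0.12, adjusted p = 0.0107). With GC offsets edgeR called 0 there, although 7 were lower at an unadjusted p under 0.05 and the median was -0.20 in place of -0.21. Mdh2 was higher in homozygous mice under SCFA (0.43 ± 0.14, adjusted p = 0.0446), where with GC offsets Cs was called in its place. In untreated homozygous mice Idh3a and Dld rose (0.40 ± 0.11, adjusted p = 0.0255, and 0.57 ± 0.18, adjusted p = 0.0463) and Ogdh fell, and with GC offsets 0 of these passed (1 up and 1 down in the list at an unadjusted p under 0.05). Among 33 assembly factors of complexes II to V, Coa5 and Cmc1, both of complex IV, rose in untreated homozygous mice (0.73 ± 0.14, adjusted p = 0.00413, and 1.07 ± 0.24, adjusted p = 0.0117), with offsets as well. They were among 4 of the 33 that rose in SCFA-treated control mice, where 2 fell, beside 8.89% and 13% of all genes tested. Of these 6 calls only Cmc1 held with GC offsets.

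Of 13 genes for coenzyme Q synthesis, 2 rose (Coq3 and Pdss1) and 2 fell in untreated homozygous mice: Coq8a (-1.71 ± 0.26, adjusted p = 0.000772), which held with GC offsets, and Coq8b (-0.97 ± 0.23, adjusted p = 0.0145), which did not. Coq8b was higher in homozygous mice under SCFA (1.02 ± 0.23, adjusted p = 0.00791) and Coq7 lower (-1.02 ± 0.20, adjusted p = 0.00358). With SCFA in control mice 4 of the list fell, led by Coq8b (-1.38 ± 0.23, adjusted p = 0.00422); with GC offsets Coq8b fell and Coq7 rose. Of 10 complex I assembly factors with other names, Lyrm2 and Tmem126b led 3 rises and 1 fall with SCFA in control mice, of which edgeR called 0 with GC offsets (1 and 1 at an unadjusted p under 0.05). Among 16 regulators of mitochondrial gene expression, Gabpa, a subunit of a factor of the ETS family, was lower in homozygous mice under SCFA (-0.53 ± 0.15, adjusted p = 0.0268). In that list 2 of the 16 fell with SCFA in control mice, near the 13% of all genes tested that fell there. These were the mitochondrial polymerases Polrmt (-0.89 ± 0.25, adjusted p = 0.023) and Polg (-0.77 ± 0.26, adjusted p = 0.0489). With GC offsets edgeR called 0 regulators in both comparisons, with 1 up and 2 down, and 2 up and 1 down, at an unadjusted p under 0.05. For genotype without SCFA it called 0 without offsets, where 2 had an unadjusted p under 0.05 and DESeq2 and limma-voom each called 2.

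Promoters were available for 76 members in RefSeq (GRCm38.p6, 250 bases before to 50 after the start). The NRF1 motif (GCGCA, any base, GCGC) was found on either strand in 19 of them (25.0%), against 5.19% of 27025 genes. The ETS motif CCGGAAG was found in 19 (25.0%, against 9.93%) and the YY1 motif AAGATGGC in 11 (14.5%, against 3.19%). A gene counts if any of its promoters holds the motif. The 27025 are all genes with a promoter and not only those tested here, and the shares were not compared by a test. None of the 3 was found in 34 and 7 held a pair of them: Atp5h, Atp5j, Atp5k, Cox6a1, Ndufaf8, Ndufs6 and Sdhd. The upstream stretches around the motifs of Sdhd and Cox6a1 are shown because each holds both NRF1 and ETS letters (motifs in capitals, which are CTTCCGG where the ETS motif is on the other strand).
Sdhd, chr9:50603874-50603943, minus strand: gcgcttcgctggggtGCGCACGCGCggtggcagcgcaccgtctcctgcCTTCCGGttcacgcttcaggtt
Cox6a1, chr5:115348959-115349135, minus strand: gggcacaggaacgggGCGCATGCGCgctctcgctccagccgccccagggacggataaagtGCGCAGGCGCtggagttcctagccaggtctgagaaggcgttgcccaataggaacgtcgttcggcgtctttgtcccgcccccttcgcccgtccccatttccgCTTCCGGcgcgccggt
In the genotype comparison under SCFA Cox6a1 was called and Sdhd, at 0.10 ± 0.12, adjusted p = 0.62, was not; the difference between these genes was not tested. A match is a string in the sequence and not a measured binding site.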

How the data were processed

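The authors deposited whole-number counts per gene symbol, aligned with STAR and counted with featureCounts on mm10 (no versions, per the submitters' processing notes); neither the annotation nor the use of strand is given there, and reads of overlapping antisense genes cannot be told apart. Qiagen extraction was followed by Clontech low-input poly(A) library preparation, per the labels. Here, edgeR 4.0.16 was used in R 4.3.3 (TMM factors, filterByExpr by group, quasi-likelihood F test, Benjamini-Hochberg over 15674 genes), with all 12 libraries in 1 fit of 4 group means. CPM are TMM-scaled. Coordinates, exon lengths, and transcript GC and length (98.96% of tested genes) come from GENCODE release 21; 96 members matched 1 gene, 2 through a synonym, and Atp5o, with a pair of entries, did not. GC offsets are loess fits (span 0.5) per library, centred to keep the TMM level.

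The members and lists were chosen with earlier results of these data known. Named members are, per comparison, up to 6 called members with the smallest p and those against the majority, the 2 highest per kilobase of each complex, isoform pairs and all Sdh genes; Atp5b, Atp5a1 and the genes named as shared or lost calls were chosen after their values were seen. Alternatives were RLE and TMMwsp factors, no filter, DESeq2 1.42.0, limma-voom (limma 3.58.1), only the libraries compared, the replicate number as a block and each library left out; those with GC or length offsets were added after the data were seen. Replicate pairs differed by more than counting noise (chi-square per degree of freedom 12.7 to 97.8). The procedure was tested on simulated counts. Protein sequences were not used here, and 1 member that the naming rule chose is not reported here.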

Additional observations from a re-analysis of the deposited data

Results flagged for a closer look

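The genotype difference with SCFA and the genotype difference without it were not the same for 37 of the 89 members tested, by the interaction term (edgeR quasi-likelihood test, adjusted p under 0.05). The 6 with the smallest p were Ndufb7 (1.26 ± 0.25, adjusted p = 0.00377), Uqcrc2 (-0.79 ± 0.16, adjusted p = 0.00427), Atp5d (1.29 ± 0.27, adjusted p = 0.00466), Cox4i1 (1.02 ± 0.21, adjusted p = 0.00496), Ndufs7 (1.26 ± 0.27, adjusted p = 0.00612) and Ndufs4 (-0.98 ± 0.21, adjusted p = 0.00635), each as a log2 difference of fold changes with its SE. With GC offsets none of these 6 passed, with values of 0.22 ± 0.17, adjusted p = 0.46, -0.26 ± 0.14, adjusted p = 0.282, 0.26 ± 0.15, adjusted p = 0.33, 0.07 ± 0.13, adjusted p = 0.809, 0.22 ± 0.16, adjusted p = 0.441 and -0.40 ± 0.14, adjusted p = 0.0892 in that order. With GC and length offsets Ndufb7 (0.66 ± 0.15, adjusted p = 0.0125) and Cox4i1 (0.45 ± 0.11, adjusted p = 0.0226) passed and the other 4 did not. Groups of 3 libraries are too small for a test of single outlying libraries.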

How the results depend on the processing

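Leaving out each library in turn gave 0 to 39 called members for genotype without SCFA, 8 to 31 for genotype under SCFA, 1 to 42 for SCFA in control mice, 2 to 10 for SCFA in homozygous mice and 19 to 54 for the interaction. With GC offsets the same ranges were 0 to 33 (4 and 14 without homozygous untreated 2 and 3), 5 to 16 (12 without homozygous untreated 1), 0 to 26, 2 to 6 and 5 to 26 (12 without homozygous untreated 3). The members named for each comparison as those of smallest p or against the majority kept their direction under every alternative checked. The fits with GC offsets and a library left out were not among those checked for direction. Of all called members with a GC value, 3 of 29 changed sign with GC offsets for SCFA in control mice (Cox4i1, Cox8a and Ndufa13, the last also with GC and length offsets) and 2 of 37 for the interaction (Cox8a and Ndufa13); Ndufs7, which missed the threshold for genotype without SCFA, went from -0.49 to 0.02. The same named calls under the left-out libraries were lost in 32 of 96 fits for genotype without SCFA, 0 of 72 for genotype under SCFA, 70 of 192 for SCFA in control mice, 18 of 48 for SCFA in homozygous mice and 0 of 72 for the interaction. Only the libraries compared gave 2 calls for genotype without SCFA, 18 for SCFA in control mice and 9 for SCFA in homozygous mice. Limma-voom with quality weights gave 35 for genotype under SCFA, 18 for SCFA in homozygous mice and 57 for the interaction. For SCFA in homozygous mice, no filter gave 7 and DESeq2 8. GC offsets gave 10 for genotype under SCFA, 6 for SCFA in control mice and 15 for the interaction; GC and length offsets gave 9 for SCFA in control mice, 10 for SCFA in homozygous mice and 23 for the interaction; GC offsets with the replicate block gave 11, 9 and 15 for genotype under SCFA, SCFA in control mice and the interaction. Same-numbered libraries shared only a number (r from -0.114 to 0.108 over 18 pairs); the replicate block gave 26, 19, 32, 2 and 38 calls in the order above. RLE and TMMwsp factors kept every count within 1.5 times its value. On plain totals the complex II sums were 830.6 CPM in control untreated, 856 in homozygous untreated and 853 in homozygous SCFA libraries, against 779, 889.97 and 870.5. The cause of these differences was not tested, beyond fewer libraries in a fit. With 3 libraries a group, a member that was not called may still differ.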
